A study of Mus musculus with 16 samples.

Results

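Striatum and cortex of R6/2 mice were compared to find which regional identity genes and which isoforms still separated the 2 brain regions in diseased tissue. R6/2 mice carry, as a transgene, exon 1 of the human huntingtin gene with an expanded CAG repeat, driven by the human huntingtin promoter, and are a model of Huntington's disease (HD) that expresses a fragment and not the full-length mutant protein. Of the 16 samples of the series, 8 entered the comparison, chosen by genotype and region alone: 4 R6/2 cortex and 4 R6/2 striatum. The other 8, from non-transgenic (NT) mice, gave the same contrast without the transgene. All 16 were bulk left-hemisphere tissue of male, 3-month-old mice of the B6CBA-Tg(HDexon1)62Gpb/3J colony, with no treatment, and each was sequenced as full-length polyA cDNA by PacBio Iso-seq. The labels do not say whether same-numbered striatum and cortex came from 1 mouse, so the p-values measure the spread between these samples.

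The striatum consists mainly of GABAergic spiny projection neurons. Those of the direct pathway carry the D1 dopamine receptor with the peptides substance P and dynorphin, and those of the indirect pathway carry the D2 and adenosine type 2A receptors with enkephalin. Both contain an olfactory type G protein, adenylyl cyclase 5 and DARPP-32, and they are the cells lost first in HD. Cortex consists mainly of layered glutamatergic neurons with vesicular glutamate and zinc transporters. Loss of projection neuron transcripts is a known feature of R6/2 striatum, and alternative splicing gives neurons of different regions different forms of synaptic and trafficking proteins.

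R6/2 cortex libraries held 486596 to 808814 reads and R6/2 striatum libraries 526937 to 1052536. Reads of known genes, as CPM, were used for levels. They were scaled to the sum of such reads in each sample times its TMM normalisation factor over all 16 samples. That factor was 0.9902 to 1.0619 in the R6/2 samples. A count of 0 allows a level of up to 3.13 to 7.17 CPM before this factor, depending on the sample. Striatum samples 2 and 3 came as 2 deposited files each, which the labels describe as 2 replicates of raw data and which were summed, while striatum 1 and 4 and every cortex sample came as 1 file. In a principal component analysis of the 8 R6/2 samples, component 1 (40.4% of the variance) separated the regions and component 2 (30.6%) separated the 2-file from the 1-file striatum. Mean isoform length was 2175 and 2225 nt in the 2-file striatum, 1830 and 1741 nt in the 1-file striatum and 1880 to 2034 nt in cortex. Mitochondrial reads made up 0.852% and 0.658% of the 2-file striatum, 1.42% and 3.21% of the 1-file striatum and 0.406 to 0.569% of cortex. Against the 1-file striatum the median log2 difference was 0.29 for the 2325 genes of shortest and -0.15 for the 2325 of longest mean isoform length, and against the 2-file striatum it was -0.31 and 0.24. The part of read length in the results was not tested, and both sets were compared with the same cortex samples. Of 98 called genes followed through the alternative fits, 94 could be tested against both sets, and all 94 had the same sign in both. Between the sets 43 differed by more than 1.5 times, and both values are given beside the 14 that differed by at least 2 times. The calls for Mbnl2, Nrgn and Rasgrp2 were lost against the 1-file striatum (adjusted p from 0.0507 to 0.0838, edgeR) and those for Cnr1, Elavl2 and Gabrb1 against the 2-file striatum (0.0523 to 0.0691), while Fam84a, Gpr83, Ptbp1 and Slc17a7 could not be tested against the 1-file striatum.

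The labelled tissues carried their markers. The summed level of 15 projection neuron markers was 2105 to 3571 CPM in R6/2 striatum and 128 to 164 CPM in R6/2 cortex, and all 13 that could be tested were higher in striatum. Of 12 cortical excitatory markers, 5 could be tested and 4 were lower in striatum, with sums of 135 to 179 CPM against 271 to 352 CPM, and most of the striatal sum was Lamp5. Oligodendrocyte markers also differed: 12 of the 12 tested were higher in striatum, and the sum of the 14 listed was 13697 to 20352 CPM against 3853 to 6079 CPM in cortex. A marker read mainly in the region it marks passes the filter on low counts through that region. Counts of tested markers, here and below, thus describe only those that passed, while each sum holds every listed marker. Of all tested genes, 7.7% were higher and 6.84% lower in R6/2 striatum. In bulk tissue, more cells of a type and more RNA per cell cannot be told apart, and the part of the unequal oligodendrocyte signal in other differences was not tested.

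Across the transcriptome, 1014 of 6975 tested genes (14.5%) differed between R6/2 striatum and R6/2 cortex at an adjusted p under 0.05 (edgeR quasi-likelihood test, Benjamini-Hochberg adjustment). Levels were higher in striatum for 537 genes (7.7% of those tested) and lower for 477 (6.84%). The higher genes were thus 53% of those called, a share that was 48.7% with upper-quartile normalisation and 65.3% without striatum 1. A difference of at least 8-fold was found for 24 of the higher and 10 of the lower genes. In 920 of the 1014 the 4 striatal and 4 cortical CPM values did not overlap, which held for 20.8% of all tested genes. The median log2 difference over all tested genes, striatum minus cortex as in every log2 value here, was 0.05. The 10 gene lists below were tested within this fit, and a member read in only 1 region passes the filter on low counts only through that region, so the counts describe the members that passed.

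Of 28 listed genes of dopamine and cAMP signalling, 23 could be tested, 17 were higher in R6/2 striatum and the other 6 did not pass the test. Their median log2 difference was 1.28, beside 0.05 over all tested genes. Ppp1r1b encodes DARPP-32, the phosphatase inhibitor that integrates dopamine signals. Its level was 36.6, 24.4, 38.8 and 34.6 CPM in cortex 1 to 4 and 738, 833, 1226 and 573 CPM in striatum 1 to 4. Every striatal sample lay far above every cortical one, with a log2 difference of 4.68 ± 0.28 (SE), or 25.7-fold (adjusted p = 5.52e-06, edgeR). Gng7, the G protein gamma subunit partner of the striatal olfactory type G protein, was at 18.3, 28.5, 29.1 and 30.0 CPM in cortex and 548, 794, 1181 and 299 CPM in striatum (4.78 ± 0.41, adjusted p = 9.94e-05, edgeR, and 4.09 against the 1-file and 5.23 against the 2-file striatum). The phosphodiesterase gene Pde10a was at 11, 4.07, 9.69 and 6.92 CPM in cortex and 43.6, 38.3, 73.2 and 56.6 CPM in striatum, again without overlap (2.72 ± 0.34, adjusted p = 4.43e-04, edgeR). Other members higher in striatum were the GTPase gene Rasd2 (4.52), the G protein regulator Rgs9 (3.80), the phosphodiesterase Pde1b (3.35, and 2.70 against the 1-file and 3.73 against the 2-file striatum), the G protein alpha subunit Gnal (3.01), the adenylyl cyclase Adcy5 (2.24), the striatal-enriched phosphatase Ptpn5 (2.24) and the exchange factors Rasgrp1 (1.47) and Rasgrp2 (1.28). The call for Rasgrp2 was lost in 4 of the 8 fits that each left out 1 library (without cortex 2, 3 or 4 or striatum 3). Pde2a (-0.66), Arpp19 (0.15), Prkar2b (0.40), Camk4 (-0.12), Itpr1 (0.49) and Rgs7bp (0.27) did not pass the test.

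Receptors of both projection pathways separated the regions. Of 44 listed G protein coupled receptors only 14 could be tested, 7 were higher and 3 lower in striatum (median log2 difference 1.20). Drd1, the D1 dopamine receptor gene, had 0, 0, 1.38 and 2.31 CPM in cortex and 33.4, 34.2, 67.1 and 33.0 CPM in striatum, so every striatal sample stood far above every cortical one (5.34 ± 0.59, adjusted p = 2.20e-04, edgeR). Adora2a, the indirect pathway adenosine receptor, was at 3.66, 6.11, 2.77 and 2.31 CPM in cortex and 45.1, 66.3, 111 and 37.7 CPM in striatum (4.18 ± 0.48, adjusted p = 2.84e-04, edgeR, and 3.52 against the 1-file and 4.55 against the 2-file striatum). Gpr6 (3.64), the histamine receptor Hrh3 (2.03), Gpr83 (1.77) and the muscarinic receptor Chrm1 (1.55) were also higher, although the call for Gpr83 was lost without cortex 1 or 2 and could be tested in 5 of the 8 fits without 1 library, and Hrh3 in 6. Drd2 did not pass the filter, with 0, 0, 1.38 and 2.31 CPM in cortex and 16, 9.33, 9.15 and 23.6 CPM in striatum, again without overlap.

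The receptors that were lower in striatum were Gpr26 (-3.04 ± 0.44), Gpr22 (-1.64 ± 0.41) and the cannabinoid receptor Cnr1 (-1.27 ± 0.36). Against the 1-file and the 2-file striatum Gpr26 was at -2.45 and -3.60 and Gpr22 at -1.06 and -2.29. Cnr1 stood at 31.1, 36.7, 19.4 and 20.7 CPM in R6/2 cortex and 7.27, 8.29, 17.3 and 7.07 CPM in R6/2 striatum, with striatum 3 above the other striatal samples and no overlap between the regions. In NT mice its log2 difference was 0.58 (adjusted p = 0.477, edgeR), and the difference between the genotypes was -1.82 (adjusted p = 1.0, edgeR). The R6/2 call was lost in 5 of the 8 fits without 1 library (cortex 1 or 2 or striatum 1, 2 or 4), with adjusted p up to 0.109, and that for Gpr22 without cortex 1, 2 or 3.

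Peptide precursors of both projection pathways were higher in striatum. Of 23 listed precursors 6 could be tested, 3 were higher, 1 was lower and 2 did not pass the test (median log2 difference 2.06). Penk, the enkephalin precursor, was at 31.1, 22.4, 31.8 and 36.9 CPM in cortex and 731, 528, 785 and 563 CPM in striatum. The lowest striatal sample was more than 10 times the highest cortical one (4.46 ± 0.24, 22.0-fold, adjusted p = 2.66e-06, edgeR). Tac1, the substance P precursor, was at 11, 10.2, 16.6 and 9.22 CPM in cortex and 174, 109, 111 and 219 CPM in striatum (3.67 ± 0.33, adjusted p = 9.94e-05, edgeR), and Pdyn, the dynorphin precursor, at 0, 4.07, 5.54 and 4.61 CPM and 59.6, 57.0, 92.5 and 42.4 CPM (4.12 ± 0.45, adjusted p = 2.14e-04, edgeR). None of the 3 genes overlapped between the regions. The interneuron peptides Npy (0.41 ± 0.43, adjusted p = 0.571, edgeR) and Sst (0.46 ± 0.47, adjusted p = 0.567, edgeR) did not pass the test. For Npy the log2 difference was 1.02 against the 1-file and -0.57 against the 2-file striatum, and for Sst 1.16 and -0.43.

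Cck, the cholecystokinin precursor abundant in cortex, was at 560.4, 424, 497 and 588 CPM in cortex and 61.1, 51.8, 11.2 and 311 CPM in striatum. All 4 striatal values were below the cortical ones, but striatum 4 was far above the other striatal samples. The log2 difference was -2.27 ± 0.69 (adjusted p = 0.0467, edgeR), -1.46 against the 1-file striatum (adjusted p = 0.00617) and -4.02 against the 2-file striatum (adjusted p = 8.39e-07), and the call held only without striatum 3 or 4, with adjusted p from 3.62e-04 to 0.158 over the fits without 1 library.

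**Figure D1:**
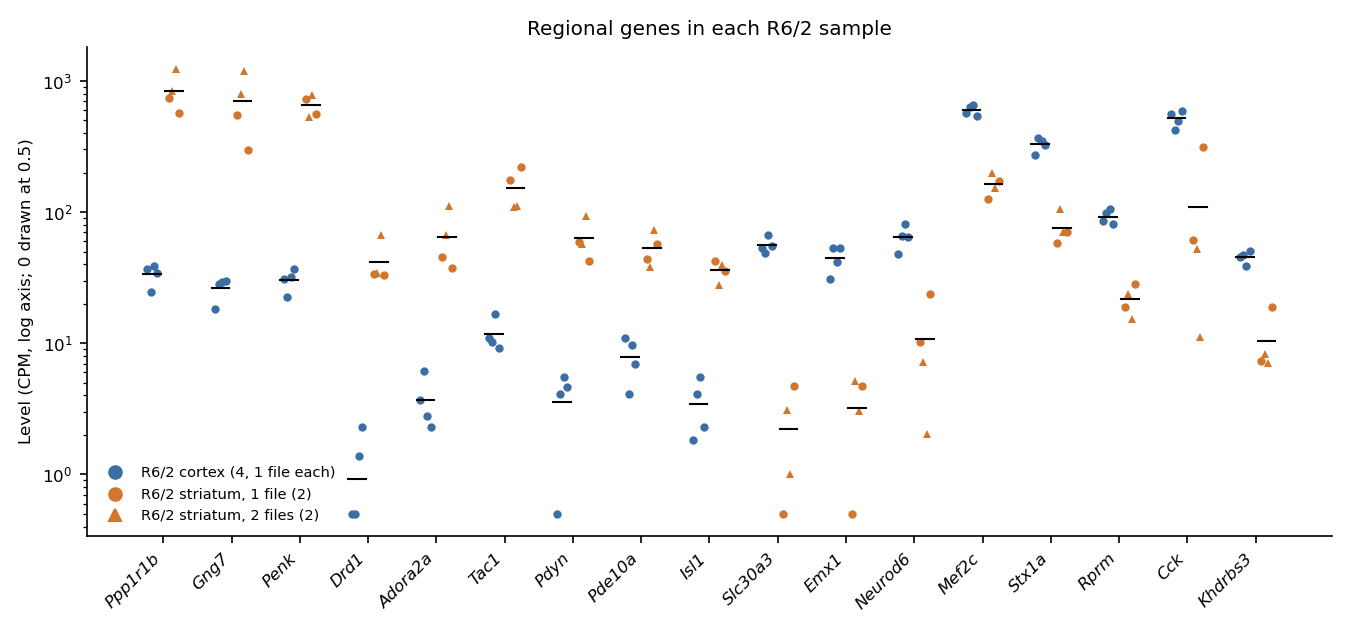
Level (CPM, log axis, values of 0 drawn at 0.5) of 17 regional genes in each R6/2 sample, with cortex in blue, striatum of 1 file as orange circles, striatum of 2 files as orange triangles and group means as bars. Penk lies at 528 CPM or more in every striatal sample and at 36.9 CPM or less in every cortical one, while Cck spreads from 11.2 to 311 CPM within striatum.

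Transcription factors of the striatal lineage differed between the regions. All 8 testable members of the 28 listed passed the test, 7 higher and 1 lower in striatum, with a median log2 difference of 2.40. Isl1, a factor of direct pathway and cholinergic neurons, was at 1.83, 4.07, 5.54 and 2.31 CPM in cortex and 42.2, 28.0, 39.6 and 35.4 CPM in striatum (3.3 ± 0.36, adjusted p = 2.07e-04, edgeR). The retinoid receptors Rxrg (3.16) and Rarb (2.46), the homeobox genes Dlx5 (3.85) and Meis2 (1.36), and the forkhead genes Foxp2 (2.34) and Foxp1 (1.65) were higher as well. The zinc finger gene Hivep2 was lower in striatum (-1.01 ± 0.24, adjusted p = 0.0156, edgeR).

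Factors of cortical projection neurons went the other way, with 8 of 13 testable members lower in striatum, 1 higher and 4 not passing the test (35 listed, median log2 difference -1.83). Emx1, a dorsal telencephalic homeobox gene, was at 31.1, 53.0, 41.5 and 53.0 CPM in cortex and 0, 5.18, 3.05 and 4.72 CPM in striatum. Every striatal sample was far below every cortical one, and the log2 difference was -3.64 ± 0.43 (adjusted p = 3.22e-04, edgeR, and -4.37 against the 1-file and -3.35 against the 2-file striatum). Mef2c, an activity-regulated factor, was at 569.5, 629, 651 and 544 CPM in cortex and 126, 200, 151 and 172 CPM in striatum (-1.83 ± 0.19, adjusted p = 1.52e-04, edgeR). Neurod1 (-3.72), Neurod6 (-2.78), Satb1 (-2.31), Nr2f1 (-2.20), Sox5 (-2.07) and Id2 (-0.87) were also lower, but Id2 kept its call only without striatum 4. Against the 1-file and the 2-file striatum the log2 differences were -3.03 and -4.37 for Neurod1 and -1.99 and -3.76 for Neurod6. Lmo3, a LIM domain cofactor on the cortical list, was higher in striatum (1.43 ± 0.26, adjusted p = 0.00424, edgeR).

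Genes of cortical excitatory neurons and cortical layers were lower in striatum for 15 of 24 testable members, higher for 3 and not called for 6 (39 listed, median log2 difference -1.06). Slc30a3, the synaptic vesicle zinc transporter gene, was at 53.1, 48.9, 66.5 and 55.3 CPM in cortex and 0, 3.11, 1.02 and 4.72 CPM in striatum, a level of a few reads in each striatal sample (-4.66 ± 0.42, adjusted p = 9.94e-05, edgeR). Slc17a7, the vesicular glutamate transporter gene, was at 16.5, 16.3, 22.2 and 18.4 CPM in cortex and 5.81, 1.04, 2.03 and 2.36 CPM in striatum (-2.68 ± 0.44, adjusted p = 0.00215, edgeR). Stx1a, a syntaxin of the release machinery, was at 271, 367, 349 and 325 CPM in cortex and 58.1, 105, 70.1 and 70.7 CPM in striatum (-2.05 ± 0.21, adjusted p = 1.45e-04, edgeR). Regional ranges of these 3 genes did not overlap, and Slc17a7 passed the filter in 4 of the 8 fits without 1 library, in all of which it was called. Also lower were the neuritin gene Nrn1 (-2.98), Tmem178 (-2.26), Rprm (-2.09), Fhl2 (-1.87), the pentraxin receptor Nptxr (-1.71), the copine Cpne7 (-1.60) and Nrgn (-0.96), the last losing its call in 6 of 8 fits (without cortex 1, 2 or 3 or striatum 1, 2 or 3). The kinase Ptk2b (1.14), the AMPA receptor auxiliary subunit Cacng3 (0.90) and the calcium buffer Calb1 (0.59) were higher in striatum, with the call for Cacng3 lost without cortex 1 or 2 and that for Calb1 lost without cortex 1, 2 or 3 or striatum 2 or 3. Camk2a, the calmodulin kinase subunit, was called lower (-0.86 ± 0.20, adjusted p = 0.0146, edgeR), but its difference was 0.42 (adjusted p = 0.579) when reads that match only part of a known isoform were left out.

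**Figure D2:**
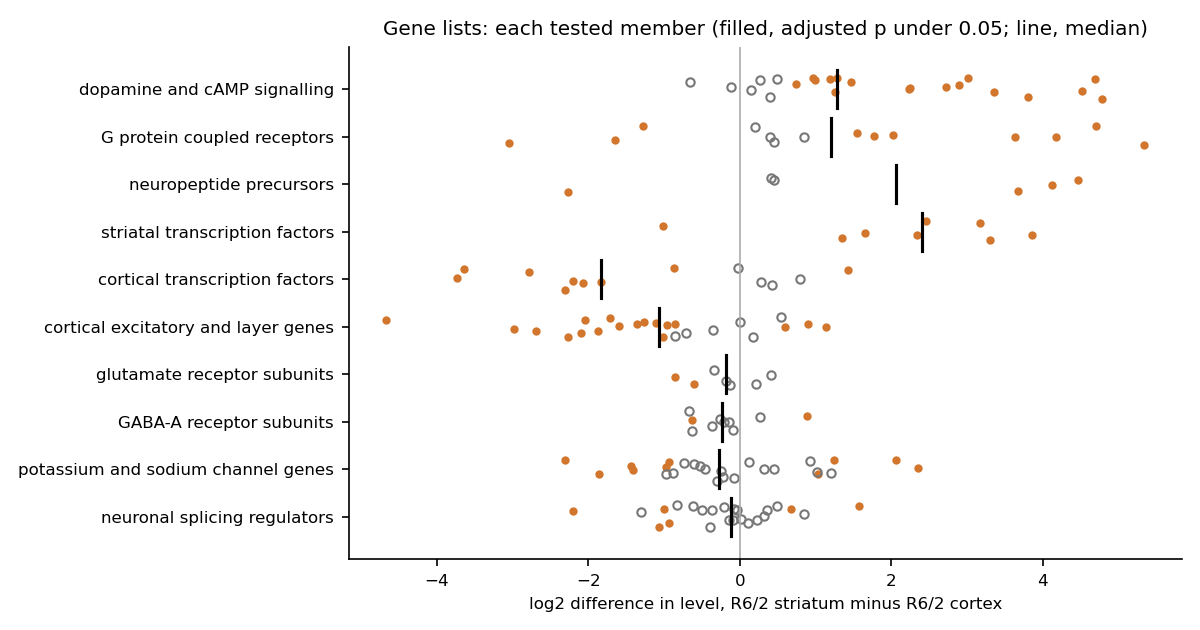
Log2 difference in level, R6/2 striatum minus R6/2 cortex, of each tested member of the 10 gene lists, filled where the adjusted p was under 0.05, with a bar at the list median. The signalling, receptor, peptide and striatal factor lists sit to the right with medians of 1.20 to 2.40, both cortical lists to the left at -1.83 and -1.06, and the receptor subunit, channel and splicing regulator lists around 0.

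Lists of ion channels, ionotropic receptors and splicing regulators had more members not passing the test than passing it. The same held over all tested genes, of which 14.5% were called, and each list had a larger called share. The medians of these lists lay between -0.27 and -0.12. Of 18 glutamate receptor subunits 7 could be tested and 2 were lower in striatum, the AMPA subunits Gria3 (-0.60) and Gria4 (-0.85), with a list median of -0.19. Gria3 kept its call only without striatum 4, and Gria4 lost it without cortex 2, 3 or 4. Among GABA-A receptor subunits (10 of 15 tested, median -0.23) Gabrd, an extrasynaptic subunit, was higher (0.89 ± 0.19, adjusted p = 0.00846, edgeR) and Gabrb1 lower (-0.63). Among the fits without 1 library, Gabrb1 kept its call only without striatum 2. Potassium and sodium channel genes (26 of 54 tested, median -0.27) had 4 higher and 6 lower members. The potassium channel subunits Kcnab1 (2.35), Kcnip2 (2.07) and Kcnk2 (1.04) and the sodium channel subunit Scn3b (1.25) were higher. The potassium channel genes Kcnmb4 (-2.30, and -1.44 against the 1-file and -3.26 against the 2-file striatum), Kcnc2 (-1.86), Kcnj9 (-1.43) and Kcnip4 (-0.93) and the sodium channel gene Scn2a (-0.97) were lower. Calls were lost for Kcnk2 without cortex 2 or 3 or striatum 1 or 3 (adjusted p up to 0.120), for Scn2a without cortex 2 or 4 or striatum 1 or 3 (0.0710), for Kcnip4 without cortex 2, 3 or 4 or striatum 1 (0.0911) and for Kcnj9 without cortex 3 or 4 (0.0603).

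Among 24 tested neuronal splicing regulators of 35 listed, 2 were higher and 4 lower in striatum (median log2 difference -0.12). Khdrbs3, the RNA-binding protein SLM2, was at 45.8, 46.9, 38.8 and 50.7 CPM in cortex and 7.27, 8.29, 7.11 and 18.9 CPM in striatum. Striatum 4 was above the other striatal samples but below all cortical ones, and the log2 difference was -2.19 ± 0.31 (adjusted p = 8.72e-04, edgeR). Ptbp1 (1.57 ± 0.36, adjusted p = 0.0132, edgeR), a repressor of neuronal exons, was higher. Mbnl2 (0.68), Rbfox2 (-1.0), Elavl2 (-1.06) and Elavl4 (-0.93) passed the test in all 8 samples, but lost the call in 5, 6, 7 and 6 of the 8 fits without 1 library. Mbnl2 lost it without cortex 1, 2 or 3 or striatum 2 or 3, and Rbfox2 without cortex 1, 2 or 3 or striatum 1, 2 or 4. Elavl2 kept it only without striatum 2, and Elavl4 only without striatum 2 or 4. Rbfox1 (0.50, adjusted p = 0.128, edgeR) and Rbfox3 (-0.09, adjusted p = 0.818, edgeR) did not pass it.

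Outside these lists, the largest increases and decreases among genes that did not overlap between regions were taken. Serpina9, a serine protease inhibitor, had 0, 0, 2.77 and 0 CPM in cortex and 58.1, 48.7, 104 and 28.3 CPM in striatum (5.87 ± 0.70, adjusted p = 3.22e-04, edgeR). Fam84a (4.04), Ankrd63 (3.87), the calcium sensor Mctp1 (3.39), the acid-sensing channel family member Asic4 (3.11), Scamp4 (3.07), the actin bundler Fscn1 (2.88, and 2.166 against the 1-file and 3.33 against the 2-file striatum) and the chemokine Cx3cl1 (2.77) followed. Enc1, an actin-binding protein of cortical neurons, had 58.6, 36.7, 41.5 and 30.0 CPM in cortex and 1.45, 1.04, 8.13 and 4.72 CPM in striatum (-3.32 ± 0.46, adjusted p = 7.85e-04, edgeR). Car10 (-2.70), the protease Prss12 (-2.54, and -3.37 against the 1-file and -2.23 against the 2-file striatum) and the actin regulator Mical2 (-2.37) were lower too. A further 4 of the largest decreases were Igfbp6 (-2.53), Igfbp2 (-2.45), the prostaglandin D synthase Ptgds (-2.40) and decorin, Dcn (-2.33), which are known from meninges and choroid plexus. Ptgds was at 5292, 3732, 4551 and 4170.1 CPM in cortex and 993, 493, 448 and 1304 CPM in striatum, and its log2 difference was -1.88 against the 1-file and -3.23 against the 2-file striatum. The summed level of 11 choroid plexus and ependymal markers was 31.1 to 1580 CPM in cortex and 100.3 to 320.2 CPM in striatum, and its only tested member Ttr had an adjusted p of 0.240 (edgeR). The part of such tissue in the 4 decreases was not tested.

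Other marker lists gave smaller or mixed differences. Interneuron markers (6 of 12 tested) had 2 higher, Gad1 (1.81) and Gad2 (0.81), the GABA synthesising enzymes, which projection neurons share. Cholinergic neuron markers were below the filter, with summed levels of 0 to 6.11 CPM in cortex and 37.7 to 63.0 CPM in striatum. Of 8 tested astrocyte markers Gja1 (0.82, lost at 0.0533 without cortex 1) and S100b (1.15) were higher and the water channel Aqp4 (-1.36) lower. Of 9 tested microglial markers the receptor Csf1r (2.42) and Ctss (0.76) were higher, and of 6 tested vascular markers Cldn5 was lower (-0.72). Oligodendrocyte progenitor markers were higher for 2 of 3 tested, Olig1 (1.53) and Bcas1 (1.28). Markers of neighbouring regions did not move together: the thalamic transporter Slc17a6 (-2.31, and -4.28 against the 1-file and -1.77 against the 2-file striatum) and Dgkg of the septum list (-1.04) were lower in striatum, while Wfs1 (3.67) and Calb1 of the hippocampus list were higher.

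The NT mice showed which of these differences also hold without the transgene. In NT tissue 582 of 6168 tested genes (9.44%) differed between the regions, 362 of them higher in striatum (62.2%, or 51.5% with upper-quartile normalisation), and the median log2 difference was 0.12. Of the 1014 genes called in R6/2, 411 were also called in NT, which is 40.5% of the R6/2 calls and 70.6% of the NT calls, and all 411 had the same direction. Of the 900 R6/2 calls that could be tested in NT, 885 had the same sign there. A test of the difference between the genotypes (region by genotype interaction, edgeR) called 1 of 7390 genes (0.0135%), with 194 at an unadjusted p under 0.05.

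Projection neuron genes are given here by their levels in all 4 groups. Penk averaged 5326 ± 649 CPM (SD, n = 4) in NT striatum and 652 ± 125 CPM in R6/2 striatum, and 135 ± 15.7 and 30.6 ± 6.01 CPM in NT and R6/2 cortex. The regional log2 difference was 5.45 in NT and 4.46 in R6/2, and its interaction was -0.89 (adjusted p = 1.0, edgeR). Ppp1r1b averaged 3715 ± 1316 CPM in NT and 843 ± 277 CPM in R6/2 striatum, and 179 ± 34.1 and 33.6 ± 6.34 CPM in the cortices. The Ppp1r1b means were lower in both regions of R6/2 mice than in NT mice, and the regional difference was 4.50 in NT and 4.68 in R6/2. Pde10a averaged 235 ± 26.6 CPM in NT and 52.9 ± 15.5 CPM in R6/2 striatum, with cortical means of 9.94 and 7.92 CPM. Its regional difference was 4.51 in NT and 2.72 in R6/2, and the interaction of -1.69 did not pass the test (adjusted p = 1.0, edgeR). Over the dopamine and cAMP list the median regional difference was 2.61 in NT and 1.28 in R6/2, and the interaction was below 0 in 21 of 24 tested members, against 51.9% of all genes, with no member called.

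**Figure D3:**
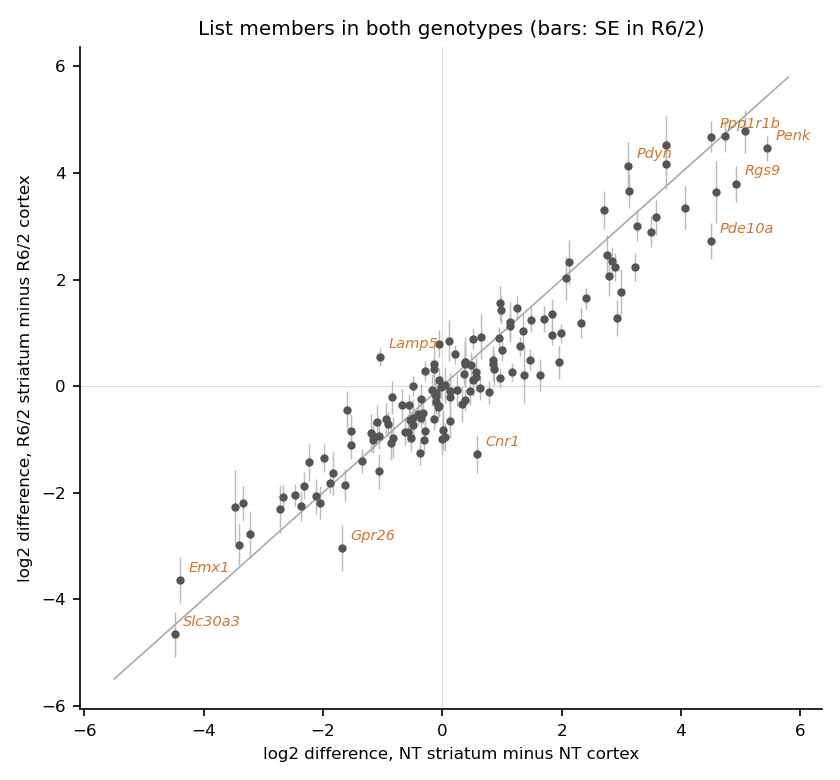
Log2 regional difference in R6/2 (y axis, bars are SE) against that in NT (x axis) for the 142 list members tested in both genotypes, with the line of equal differences. Slc30a3 and Ppp1r1b lie close to the line, Pde10a lies below it (4.51 in NT, 2.72 in R6/2), and Lamp5 lies on opposite sides of 0 in the 2 genotypes.

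Lamp5, a lysosomal membrane protein gene of upper cortical layers and some interneurons, was the gene called by the interaction. In NT mice it was at 406, 362, 258 and 342 CPM in cortex and 131, 148, 146 and 180.2 CPM in striatum, with every cortical sample above every striatal one (-1.04). In R6/2 mice it was at 73.2, 95.7, 77.5 and 69.2 CPM in cortex and 103.2, 102.6, 127 and 113 CPM in striatum, with every striatal sample above every cortical one (0.55 ± 0.17, adjusted p = 0.0543, edgeR). The regional difference in R6/2 minus that in NT was 1.69 on the log2 scale (adjusted p = 0.0476, edgeR). That call held in 2 of 16 fits without 1 library (NT cortex 3 or NT striatum 4), with adjusted p from 0.0196 to 0.271, and it was 0.282 with the 1-file and 0.0758 with the 2-file striatum. The next genes by unadjusted interaction p, Bok, Ccm2, Marcksl1, Srrt, Ppp1ca, Rasgrp2, Atp2b1, Cr1l and Cd59a, all had an adjusted p of 1.0 (edgeR).

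Isoform usage, the share of a gene's complete reads that each isoform takes, differed between R6/2 striatum and cortex in 28 of 3992 tested genes (0.701%, edgeR differential usage with Simes adjustment over isoforms and Benjamini-Hochberg over genes), with 224 at an unadjusted p under 0.05. A logit model of the usage percentages, added after the data were seen, called 179 genes (4.48%), among them all 28. Expression was not called in 14 of the 28, was higher in striatum in 4 and lower in 10. In 24 of the 28 the leading isoform had no overlap between regions and at least 10 complete reads in every sample, and in 23 of these 24 it had the same sign in NT. The adjusted p given for usage is that of the gene, and an isoform's own p is given where it was above 0.01. In 16 genes an annotated isoform with a lower and one with a higher share in striatum each had no overlap between regions, and the pair had different first exons in 7, different last exons in 7, both in 2, and shared both in 4. Coordinates of isoforms are those of GENCODE M21 on mm10.

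Several of the pairs differed at the promoter end. Osbpl1a encodes an oxysterol-binding protein that works at endosomes, and its 12-exon isoform made up 45.5, 50, 34.8 and 36.4% of complete reads in cortex 1 to 4 and 0, 2.174, 1.89 and 0% in striatum 1 to 4. Every striatal share was far below every cortical one (adjusted p = 9.40e-04, edgeR), and an annotated 14-exon isoform, at 9.09, 10.0, 26.1 and 27.3% and 35, 39.1, 39.6 and 41.2% (own p 0.0915), starts 42766 nt away. A count of 0 of the 20 and 17 complete reads in striatum 1 and 4 allows a share of up to 15.0% and 17.6%, counting error only. The share was 41.3 ± 9.54% in NT cortex and 1.16 ± 1.63% in NT striatum (SD, n = 4). Fam131a, itself lower in striatum (-1.11), used a 6-exon isoform for 54.3, 43.8, 52.1 and 60.2% of reads in cortex and 8.11, 13.2, 8.64 and 12.5% in striatum (adjusted p = 0.00114, edgeR). Its unannotated 7-exon isoform took 40.0, 47.9, 43.6 and 36.1% in cortex and 86.5, 78.9, 75.3 and 81.2% in striatum. The zinc finger gene Flywch1 used a 7-exon isoform for 60.2, 73.7, 77.4 and 50% in cortex and 10.8, 13, 13.5 and 32.7% in striatum (adjusted p = 0.00114, edgeR), and an unannotated 9-exon isoform for 16.1, 6.78, 6.55 and 21.2% and 48.2, 43.9, 38.7 and 32.7%. Fam131a and Flywch1 are not among the 16 pairs, and where their unannotated isoforms start was not examined. In Osbpl1a, Fam131a and Flywch1 every cortical share of the 12-exon, 6-exon and 7-exon isoform, in that order, was above every striatal one, and the calls held in each fit that left out 1 library. With known isoforms only, Osbpl1a kept its call, Fam131a had an adjusted p of 0.0550 and Flywch1 one of 1.0 (edgeR).

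Rtn1 and Rtn4 encode reticulons, which shape the endoplasmic reticulum. The 7-exon isoform of Rtn1 took 94.2, 90.8, 90.9 and 91.5% of complete reads in cortex and 84.1, 69.6, 62 and 87.3% in striatum without overlap, but its own p was 0.399. The call of the gene (adjusted p = 0.00313, edgeR) goes with the longer 9-exon isoform (own p 2.68e-06), which starts 172330 nt away and took 4.59, 8.04, 8.43 and 7.56% in cortex and 14.6, 29.2, 36.5 and 11.9% in striatum. The 2-file striatum, with the longer mean isoform length, had the lower shares of the short form, and the adjusted p of the gene was 0.0620 with the 1-file and 2.01e-10 with the 2-file striatum, and 0.0992 without cortex 1. A 3-exon unannotated isoform of Rtn4 made up 21.8, 26.9, 18.6 and 16.9% in cortex and 4.63, 4.27, 5.05 and 0% in striatum (adjusted p = 0.00256, edgeR, and 0.179 with known isoforms only). Gng7, higher in striatum, used a 3-exon isoform for 0, 0, 5 and 0% of complete reads in cortex and 12.2, 13.4, 11.2 and 13.4% in striatum (adjusted p = 0.00209, edgeR, own p 0.0282), although the cortical samples at 0 had 10 to 14 complete Gng7 reads, which allow shares of up to 21.4 to 30.0%.

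Other pairs differed at the 3′ end. Ptn encodes pleiotrophin, a secreted growth factor, and its 4-exon isoform ends 24530 nt before the 5-exon one. It took 39.5, 34.2, 30.1 and 37.3% of complete reads in cortex and 14.2, 6.83, 6.18 and 14.2% in striatum, at 120 to 293 complete reads a sample (adjusted p = 0.00114, edgeR, and 1.53e-04 to 0.0142 without 1 library). Sept8, a septin gene, had a 10-exon isoform with another last exon at 4.46, 9.52, 7.45 and 10.4% in cortex and 34.1, 22.5, 30.2 and 34.9% in striatum (adjusted p = 0.00313, edgeR, lost at 0.105 without cortex 1 and 0.0673 with known isoforms only). This Sept8 isoform thus took a larger share in striatum than in cortex, but a minority of reads in both. Its values were 6.51 ± 3% in NT cortex and 28.7 ± 7.39% in NT striatum. Eif3c, a translation initiation factor subunit, had a short 7-exon isoform at 39.1, 20, 29.4 and 33.3% in cortex and 6, 5.83, 0.862 and 4.35% in striatum (adjusted p = 0.0109, edgeR, lost without cortex 1 or striatum 3, up to 0.159, and at 0.117 with the 1-file striatum). Elsewhere, Nisch, which encodes nischarin, had its full 21-exon isoform at 0, 0, 12.9 and 0% in cortex and 31.1, 28.3, 44.3 and 14.3% in striatum (a count of 0 allows 11.5 to 12.5% in cortex 1, 2 and 4, adjusted p = 0.0195, edgeR, lost in 4 of 8 fits, without cortex 1, 2 or 4 or striatum 3, and at 0.139 with the 1-file striatum). The histone-binding gene Rbbp4 had an unannotated 12-exon isoform at 21.1, 36.0, 18.2 and 12.1% in cortex and 1.39, 2.41, 1.36 and 2.70% in striatum (adjusted p = 0.00462, edgeR, lost without cortex 2). Mbp, the myelin basic protein gene, used a 5-exon isoform for 83.3, 82.5, 82.9 and 86.3% in cortex and 88.7, 88.9, 87.7 and 90.5% in striatum without overlap, but its own p was 0.820 although the gene was called (adjusted p = 0.00114, edgeR). This stands beside the higher summed oligodendrocyte level in striatum given above, whose part in it was not tested.

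**Figure D4:**
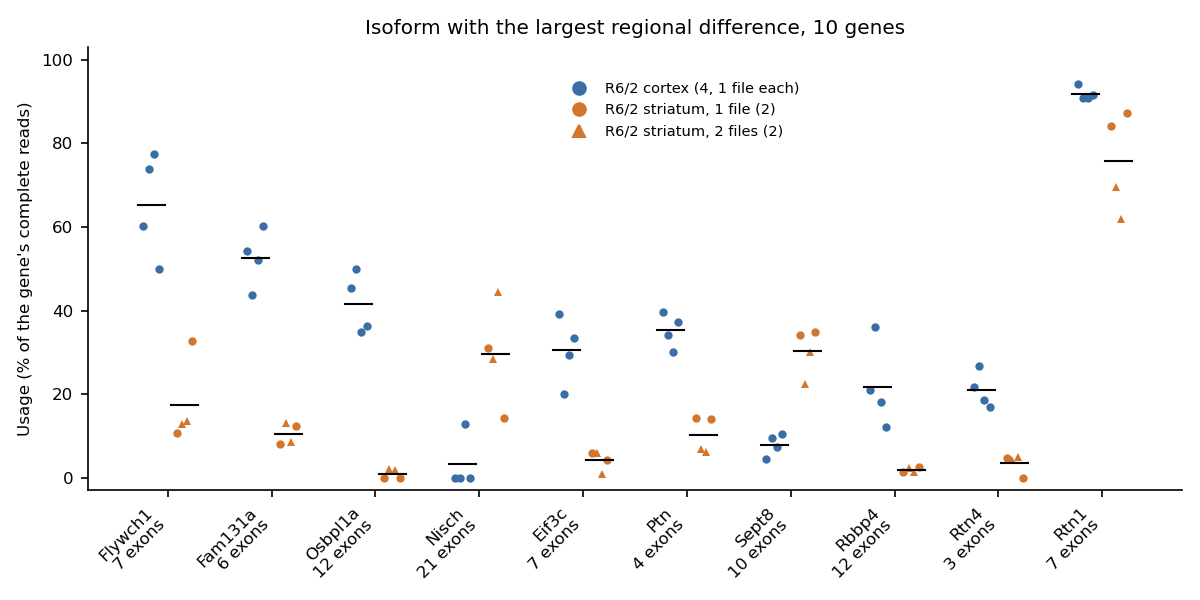
Usage (% of the gene's complete reads) of the isoform with the largest regional difference in 10 genes, in each R6/2 sample, with cortex in blue, striatum of 1 file as orange circles, striatum of 2 files as orange triangles and means as bars. Nisch and Sept8 isoforms are higher in striatum, the other 8 are lower, and Rtn1 spreads from 62 to 87.3% within striatum.

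Between genotypes, the usage interaction called 0 of 5641 genes (edgeR, with 87 at an unadjusted p under 0.05, and 1 by the F test in place of Simes).

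Cassette exons are internal exons that known isoforms either include or skip. For each exon a fixed pair of flanking splice sites was used, that with the most reads of its rarer form. Spanning reads are reads of known isoforms that join this pair directly or through the exon alone. Inclusion is the share of spanning reads that contain the exon, and reads with the exon between other splice sites were not counted. Sequences of the exons described below are shown first, since they are the parts of the messages that differ between the regions, with 20 flanking bases of the including transcript on each side in lower case and the exon in capitals, from GENCODE M21 on mm10. They cover Clta (chr4:44030215-44030268, plus strand), Cltb (chr13:54597026-54597079, minus strand), Mff (chr1:82741818-82741976, plus strand), Wbp2 (chr11:116080546-116080680, minus strand), Ndrg4 (chr8:95712325-95712363, plus strand), Ap2a1 (chr7:44903462-44903527, minus strand), Tpd52l2 (chr2:181510504-181510530, plus strand) and Eif4h (chr5:134624441-134624500, minus strand), all of them coding.
Clta: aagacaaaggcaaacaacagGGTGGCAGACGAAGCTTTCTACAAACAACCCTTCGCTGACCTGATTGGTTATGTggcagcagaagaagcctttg
Cltb: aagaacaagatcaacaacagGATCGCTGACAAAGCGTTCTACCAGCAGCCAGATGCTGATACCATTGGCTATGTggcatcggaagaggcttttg
Mff: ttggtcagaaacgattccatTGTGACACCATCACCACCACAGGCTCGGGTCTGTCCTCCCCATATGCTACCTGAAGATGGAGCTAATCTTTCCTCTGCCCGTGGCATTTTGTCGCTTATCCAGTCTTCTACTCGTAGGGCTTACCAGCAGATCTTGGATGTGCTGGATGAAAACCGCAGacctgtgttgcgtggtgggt
Wbp2: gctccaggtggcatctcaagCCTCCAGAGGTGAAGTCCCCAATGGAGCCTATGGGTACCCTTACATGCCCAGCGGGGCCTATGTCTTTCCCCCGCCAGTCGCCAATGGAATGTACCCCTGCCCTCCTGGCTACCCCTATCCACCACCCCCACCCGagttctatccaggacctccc
Ndrg4: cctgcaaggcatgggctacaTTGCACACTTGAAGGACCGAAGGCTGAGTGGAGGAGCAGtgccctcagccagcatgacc
Ap2a1: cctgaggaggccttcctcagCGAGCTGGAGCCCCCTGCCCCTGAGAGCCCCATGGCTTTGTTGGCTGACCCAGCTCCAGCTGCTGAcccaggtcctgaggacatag
Tpd52l2: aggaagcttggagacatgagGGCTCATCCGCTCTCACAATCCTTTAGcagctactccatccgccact
Eif4h: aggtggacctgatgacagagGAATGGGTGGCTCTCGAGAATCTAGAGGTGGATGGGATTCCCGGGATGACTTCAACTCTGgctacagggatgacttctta

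The edgeR test called 1 of 664 tested exons (0.151%), with 60 at an unadjusted p under 0.05. The called exon, in the histocompatibility gene H2-T22, was spanned by as few as 2 reads in a sample, and reads of this family can be shared between near-identical copies. The logit model, added after the data were seen, called 29 exons (4.37%), 12 with higher and 17 with lower inclusion in striatum, and 21 of them did not overlap between regions. Length was divisible by 3 in 21 of the 29 and in 351 of the 664 tested. Of the 29, 24 were wholly coding, which was not counted over the 664. Over exons with at least 5 spanning reads in every R6/2 sample, 38 of 436 did not overlap between the regions, 23 with higher and 15 with lower inclusion in striatum. In NT tissue 25 of the 29 called exons had the same sign and 9 were called. All p-values for exons below are from the logit model, and the difference between genotypes was not tested for exons.

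Clta and Cltb encode the clathrin light chains, and each has a 54 nt neuronal exon that is inserted at the corresponding position of the protein. Clta inclusion was 51.1, 57.9, 66.7 and 63.0% in cortex and 40.7, 44.3, 45.6 and 34.5% in striatum (log2 odds -1.02, adjusted p = 1.35e-04, limma logit model, and up to 0.0506 without cortex 3). Cltb inclusion was 84.9, 87.2, 93.5 and 87.3% in cortex and 78.5, 73.2, 83.5 and 75.7% in striatum (-1.09, adjusted p = 1.31e-04, limma logit model, 1.44e-05 to 0.0414 without 1 library). By this measure both light chain exons were included less in striatum, without overlap between regions. The including reads came from a single annotated isoform of each gene. Inclusion over all forms that hold the exon, such as with another neighbouring exon, was not measured. The 2 exons have the same length and are identical at 37 of 54 positions (68.5%), as the letters below show with the 17 differing bases in capitals.
Clta exon: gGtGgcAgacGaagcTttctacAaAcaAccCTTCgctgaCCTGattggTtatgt
Cltb exon: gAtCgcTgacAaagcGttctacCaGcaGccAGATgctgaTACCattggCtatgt

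Inclusion in NT tissue was 57.1 ± 11% in NT cortex and 32.6 ± 9.99% in NT striatum for Clta and 87.6 ± 1.44% in NT cortex and 76.0 ± 5.2% in NT striatum for Cltb. Ap2a1, a subunit of the clathrin adaptor AP-2, had a 66 nt exon at 88.9, 81.1, 87 and 90.6% in cortex and 55.6, 76.7, 74.0 and 65.0% in striatum (-1.20, adjusted p = 0.0169, limma logit model). That call was lost without cortex 1, 3 or 4 or striatum 1 (up to 0.122), and NT values were 74.1 ± 6.34% in NT cortex and 72.0 ± 18.9% in NT striatum.

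Mff encodes the mitochondrial fission factor, a receptor for the fission GTPase on the outer membrane. Its 159 nt exon was at 93.6, 90.9, 85.3 and 85.9% in cortex and 72.3, 78.4, 72.6 and 71.7% in striatum, at 46 to 176 spanning reads a sample. The striatal samples were all lower (log2 odds -1.34, adjusted p = 2.27e-06, limma logit model, 1.03e-06 to 6.25e-04 without 1 library), and inclusion was 85.9 ± 4% in NT cortex and 73.6 ± 9.91% in NT striatum. Wbp2, a transcription coactivator, had a 135 nt exon at 58.8, 62.7, 63.0 and 66.1% in cortex and 74.7, 79.5, 78.8 and 80.6% in striatum (1.12, adjusted p = 2.73e-09, limma logit model). Ndrg4, a neuronal gene of the NDRG family, had a 39 nt exon at 89.7, 86.9, 88.1 and 89.6% in cortex and 96.0, 93.6, 95.4 and 96.1% in striatum, at 670 to 3890 spanning reads (1.26, adjusted p = 2.59e-23, limma logit model). Wbp2 and Ndrg4 exons were higher in every striatal sample, and the calls for Mff, Wbp2 and Ndrg4 held in each fit without 1 library and with either set of striatal files.

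Smaller or less stable differences followed. Tpd52l2 had a 27 nt exon at 52.4, 41.7, 52.9 and 36.4% in cortex and 15.4, 22.2, 28.6 and 25% in striatum, from 11 to 28 spanning reads (-1.53, adjusted p = 0.0236, limma logit model). The translation factor gene Eif4h had a 60 nt exon at 71.1, 74.5, 74.2 and 74.6% in cortex and 78.7, 77.7, 78.9 and 83.6% in striatum (0.41, adjusted p = 0.00846, limma logit model), while inclusion was 61.9 ± 2.08% in NT cortex and 76.0 ± 1.79% in NT striatum. The ubiquitin ligase gene Rnf114 had a 151 nt exon at 10.0, 17.1, 17.7 and 19.1% in cortex and 25.4, 32.9, 30.2 and 31.0% in striatum (1.04, adjusted p = 0.0236, limma logit model), and Gprasp2 a 128 nt exon that is not wholly coding at 100, 88.9, 91.9 and 100% and 81.0, 83.1, 74.1 and 71.4% (-1.67, adjusted p = 0.0212, limma logit model). Among the fits without 1 library, Tpd52l2 lost its call without cortex 1 or 3 or striatum 1 or 2 (adjusted p up to 0.123), Eif4h without cortex 1 (0.0883) and Gprasp2 without cortex 1, 3 or 4 or striatum 3 (0.147), while Rnf114 kept it only without striatum 1 or 4 (up to 0.114). A 123 nt exon of Mbp was at 9.77, 11.5, 10.4 and 8.69% in cortex and 6, 6.53, 6.67 and 4.49% in striatum (-0.75, adjusted p = 0.0130, limma logit model, lost without cortex 1, 2 or 3 at up to 0.114).

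**Figure D5:**
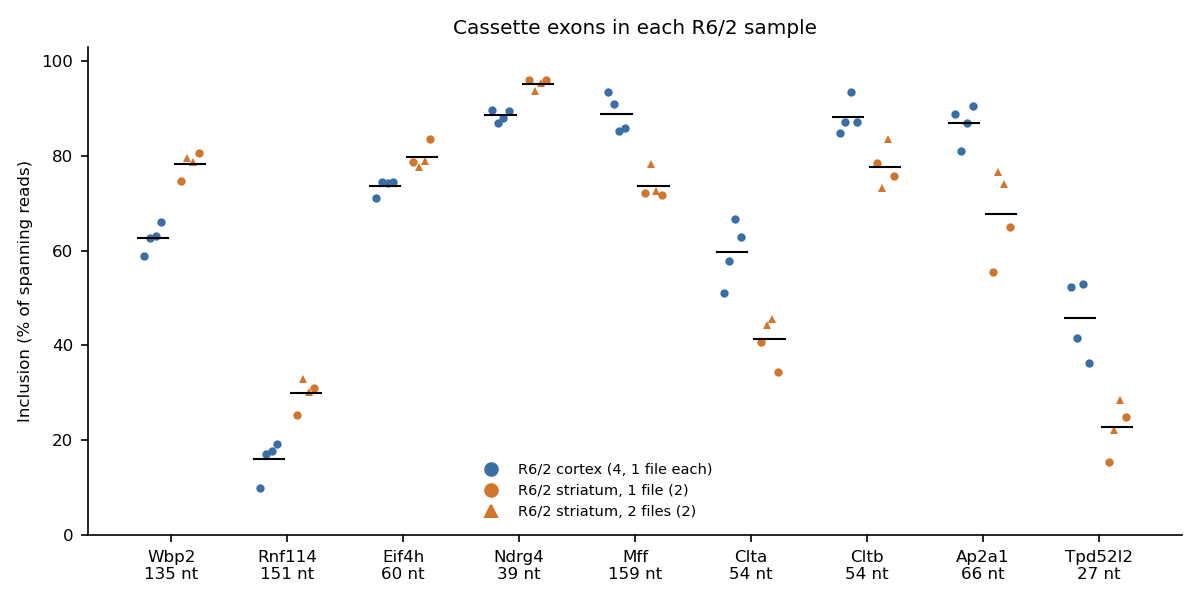
Inclusion (% of spanning reads) of 9 coding cassette exons in each R6/2 sample, with cortex in blue, striatum of 1 file as orange circles, striatum of 2 files as orange triangles and means as bars. The Wbp2, Rnf114, Eif4h and Ndrg4 exons are higher and the Mff, Clta, Cltb, Ap2a1 and Tpd52l2 exons lower in every striatal sample.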

How the data were processed

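Long reads of polyA RNA from striatum and cortex of male mice, 8 R6/2 and 8 NT samples, were deposited by the authors as tables of whole-number counts of reads per isoform and sample, not normalised. RNA was treated with a 5′-phosphate-dependent exonuclease, sequenced on a PacBio Sequel II, and consensus reads were mapped by the authors to mm10 with minimap2 2.17-r941, corrected with TranscriptClean and assigned to isoforms with TALON on Ensembl annotation. The deposited count tables are the unfiltered ones.

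Gene counts were summed here over isoforms of the Known, ISM (part of a known isoform), NIC and NNC (unannotated combinations or splice sites) classes of known genes, and the 2 files of a sample were summed. Genes were filtered by filterByExpr, normalised by TMM and tested with edgeR 4.0.16 (R 4.3.3) glmQLFit and glmQLFTest, region only, Benjamini-Hochberg over all tested genes, threshold 0.05. CPM are gene counts scaled to the sample's sum of gene counts times its TMM factor over all 16 samples. Usage was tested with diffSpliceDGE, leaving out ISM reads and isoforms under 10 reads in all. For annotated cassette exons, each form holding 10 or more reads, the including and skipping reads were tested together by its F test, since an exon-level p for one form counts the other again. A limma 3.58.1 model of log2 odds (offset 0.5) was added after the data were seen because the usage and exon tests called few features, and the exons named rest on it. DESeq2 1.42.0, other filters, depth and file choices were alternatives. The gene, usage and exon tests and the logit model were run on simulated counts, and the other steps were not.

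Members and gene lists were chosen with earlier results of these data known. Beyond the lists, the 8 largest increases and decreases without overlap and with at least 20 mean reads in the higher region, the 10 smallest interaction p-values, the 12 largest usage differences (at least 10 complete reads) and the 8 largest exon differences (at least 5 spanning reads) were named. Some genes that these rules or lists hold are not reported here. The exons of Cltb, Ndrg4, Eif4h and Mbp, the usage of Gng7 and Mbp, and the H2-T22 exon were chosen after their values were seen. Of 37726 known isoforms 37568 were found by identifier in GENCODE M21, which gave exon coordinates and sequences. Sept8 is listed as a date in the tables and was named by its identifier.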

Additional observations from a re-analysis of the deposited data

Results flagged for a closer look

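Single samples that stood apart from the other 3 of their group were found in 19 of the 282 groups of 4 values examined (6.74%) by Dixon's test, and chance gives about 1 in 20. In R6/2 striatum the highest sample stood apart for Cck (311 CPM), Cnr1 (17.3 CPM), Drd1 (67.1 CPM), Foxp1 (156.5 CPM), Igfbp6 (30.7 CPM), Khdrbs3 (18.9 CPM) and Rbfox1 (115 CPM), and the lowest for Satb1 (2.03 CPM). In R6/2 cortex a sample stood apart for Cx3cl1 (40.1 CPM), Gng7 (18.3 CPM), Npy (115 CPM), Serpina9 (2.77 CPM) and Sox5 (53.0 CPM).

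Among isoforms and exons, 1 sample stood apart for the leading isoform of Flywch1 in striatum (32.7%), of Nisch in cortex (12.9%) and of Rtn4 in striatum (0%), and for the exons of Mff in striatum (78.4%), Hnrnph2 in cortex (79.6%) and Eif4h in cortex (71.1%). The Rtn4 share of 0% came from 55 complete reads and allows up to 5.46%.

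Lamp5 differed between the genotypes: its regional log2 difference in R6/2 minus that in NT was 1.69 (adjusted p = 0.0476, edgeR interaction), with the libraries on which this rests given above.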

How the results depend on the processing

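The 1014 R6/2 genes became 1987 with the 1-file striatum, 2403 with the 2-file striatum (chosen after seeing the data), 1998 with the number of files as a term, 1634 without a filter on low counts and 630 at equal depth, and 677 to 1268 without 1 library. The 582 NT genes became 1609, 984, 1476, 1302 and 145 in the same order, 307 with the replicate block, 353 without ISM isoforms and 352 to 727 without 1 library (lowest without NT cortex 2). The 1 interaction gene became 0 with either file set, at equal depth, with the first file only, with the replicate block and without ISM isoforms, 2 with DESeq2 or the genomic class added and 3 with the files term, and 0 to 1 without 1 library.

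The 28 usage genes became 78 with the 2-file striatum, 171 with ISM isoforms added, 69 by the F test, 17 with known isoforms only, 179 by the logit model, 49 with the replicate block and 13 (without cortex 1) to 42 (without striatum 4) without 1 library. The usage interaction stayed at 0 without 1 library and was 1 by the F test. The 1 exon became 5 with either file set, 2 with the first file, 29 by the logit model, 0 with a minimum of 20 reads or the form alone, 6 with the files term, 4 with the replicate block and 0 to 3 without 1 library. The 29 logit exons became 12 with the 1-file striatum or the files term, 18 with the first file and 9 (without cortex 3) to 32 without 1 library.

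Camk2a reversed from -0.86 to 0.42 without ISM isoforms. Of 113 genes followed through the alternative fits, 98 were called, 75 of them in all 8 fits without 1 library. Slc17a7 and Hrh3 were called in the 4 and 6 such fits that could test them. The called genes Rasgrp1, Nptxr, Cpne7, Fam131a, Gad2, S100b, Csf1r, Ctss, Cldn5, Olig1, Bcas1 and Dgkg were not among the 113. How stable their calls for level are is not given. Without ISM isoforms the calls for Calb1, Cck, Gabrb1, Gria3, Mbnl2 and Rbfox2 were also lost. Adcy5, Chrm1, Enc1, Foxp2, Gpr22, Gria4, Hrh3, Kcnc2 and Kcnip4 could not be tested without these isoforms. Nor could Kcnk2, Mical2, Nr2f1, Ptbp1, Rasd2, Rasgrp2, Satb1, Serpina9 and Slc17a7.

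Replicate numbers were not taken to pair samples: same-numbered samples correlated in their deviations at 0.42, 0.20, 0.39 and -0.03 in R6/2 and -0.24, 0.26, 0.14 and -0.19 in NT, and 5 of the 8 numbers matched their own best (R6/2 1, 2 and 3 and NT 2 and 3). With the replicate block the R6/2 count was 1051 and the usage interaction 0. Depth limits low genes, since only 14 of 44 listed receptors passed the filter, and region and number of files were partly confounded.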
